A study of Rattus norvegicus and Bos taurus with 6 samples.

Results

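Triglyceride synthesis and the supply of glycerol phosphate were followed through 10 genes in single-nucleus RNA sequencing of adipose tissue. The genes were Acsl1, Gpam, Agpat2, Lpin1, Dgat1, Dgat2, Mogat1, Gpd1, Gk and Pck1, chosen as a pathway and matched by symbol in any case. All 10 were among the 38697 genes of the rat Parse table and the 25629 genes of the rat 10x table, and 9 were among the 36075 genes of the cow table. MOGAT1 is the other.

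The data were 6 libraries, 1 for each condition. Adipose tissue of male Dahl SS rats (strain SS/HsdMcwiCrl, a line prone to hypertension on salt) on a normal diet gave 5 of them. These were mesenteric perivascular adipose tissue (mesPVAT) prepared with the 10x 3' v3 kit, and mesPVAT, retroperitoneal (RP) fat, thoracic aorta perivascular adipose tissue (taPVAT) and subscapular brown adipose tissue (BAT) prepared with the Parse Evercode WT v3 kit. The remaining library was subcutaneous white adipose tissue (WAT) from the flank of lactating female Holstein cattle, also prepared with the Parse kit. Disease state was labelled normal and tissue was snap-frozen throughout. Ages, and how many animals stand behind a library, are not given in the sources used here. By their titles mesPVAT, RP fat and cow WAT are white fat, and taPVAT and BAT are brown fat. The white rat Parse libraries are called here by their labels. Median genes per nucleus were 304 in that labelled mesPVAT and 197 in that labelled RP fat. The study's text describes these depots in the opposite order, so it is open to doubt which of them is which, and an exchange of the labels was not tested. Comparisons that take both white rat Parse libraries together do not depend on it.

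Fat cells store energy as triglyceride, which is built on glycerol 3-phosphate by adding fatty acyl groups in turn. Acsl1 activates fatty acids to acyl-CoA, Gpam places an acyl group on glycerol 3-phosphate, Agpat2 adds another to give phosphatidic acid, Lpin1 removes the phosphate, and Dgat1 or Dgat2 adds the last acyl group. Mogat1 makes the same diacylglycerol substrate from monoacylglycerol. Glycerol 3-phosphate comes from glycolysis through Gpd1, from lactate and similar precursors through Pck1 (glyceroneogenesis), or from free glycerol through the kinase Gk. White adipocytes are known for low glycerol kinase activity, and brown adipocytes for more.

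The libraries held 2297 to 5887 nuclei and 845316 to 16827260 unique molecular identifiers (UMIs, each standing for a captured RNA molecule). Median UMIs per nucleus ran from 161 in mesPVAT on 10x to 3530 in cow WAT, and no barcode was shared between libraries. A level is given as UMIs per 1000000 UMIs of the library or of the nuclei named (CPM), and intervals in brackets are 95% intervals that cover counting error only. With no replicates, no test between conditions was possible and no p-value is given. In a sum over nuclei, fewer adipocyte nuclei and less RNA in each cannot be told apart. Ucp1, the uncoupling protein of brown fat, stood at 2072 CPM in BAT and 1782 CPM in taPVAT, and at 63.4 and 89.9 CPM in the Parse libraries labelled mesPVAT and RP fat. It had 1 UMI in mesPVAT on 10x and 11 UMIs in cow WAT. Marker-positive nuclei, those with at least 1 UMI of Plin1 (the lipid droplet protein perilipin 1) or Adipoq (the hormone adiponectin), made up 71.1% of BAT, 62.3% of taPVAT, 24% of mesPVAT on 10x, 23.2% of mesPVAT on Parse and 10.5% of RP fat. In the cow PLIN1 alone was used, and 17.5% of nuclei were positive.

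Promoter sequence is shown for Pck1, whose level set the cow apart from every rat library, and for Mogat1, the gene with the fewest UMIs. The windows are the 250 bases before the annotated start, from RefSeq on GRCr8, at chr3:182348322-182348571 and chr9:87429177-87429426, both on the plus strand and written 5′ to 3′. Capitals mark matches to the motifs searched.
Pck1: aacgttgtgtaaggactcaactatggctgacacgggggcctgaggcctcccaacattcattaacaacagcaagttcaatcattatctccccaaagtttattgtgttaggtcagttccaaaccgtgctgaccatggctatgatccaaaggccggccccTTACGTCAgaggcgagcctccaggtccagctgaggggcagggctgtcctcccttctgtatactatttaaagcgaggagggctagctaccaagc
Mogat1: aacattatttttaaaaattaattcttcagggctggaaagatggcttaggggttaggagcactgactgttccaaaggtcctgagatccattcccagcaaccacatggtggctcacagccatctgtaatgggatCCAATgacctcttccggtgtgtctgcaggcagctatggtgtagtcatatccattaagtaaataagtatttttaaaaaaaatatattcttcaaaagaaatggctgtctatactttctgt
The capitals in Pck1 are TTACGTCA, a variant of the cyclic AMP response element, at positions -93 to -86 from the start. Of 27457 promoter windows, 0.819% held it on either strand. The capitals in Mogat1 are the CCAAT box, which 34.3% of windows held.

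RefSeq windows were found for 7 of the 10 genes, all but Dgat1, Dgat2 and Gpd1. CCAAT was in the windows of Acsl1, Gpam, Lpin1, Mogat1 and Gk, and the GC box GGGCGG, which 32.4% of windows held, in those of Agpat2 and Gk. None of the 7 windows held the full cyclic AMP response element (TGACGTCA, in 1.70% of windows), the TATA motif (TATAAA, in 13.1%) or the E-box (CACGTG, in 5.79%) on either strand. These are matches of letters only. The RefSeq starts are not always the ends of the gene spans given below. The windows of Acsl1, Lpin1 and Agpat2 lie inside those spans, and those of Gpam and Gk lie partly inside.

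Acsl1, on chr16:52487870-52554110 of GRCr8, stood higher in brown than in white libraries. Its level was 2889.7 CPM in BAT, 2374 CPM in taPVAT, 679 CPM in mesPVAT on Parse, 269.7 CPM in RP fat, 1316 CPM in mesPVAT on 10x and 852 CPM in cow WAT. No interval among the 4 rat Parse libraries overlapped another.

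Gpam, the mitochondrial acyltransferase that starts the chain (chr1:264111599-264176112), had a different order, with cow WAT on top. It stood at 1268 CPM in cow WAT, 426 CPM in taPVAT, 294 CPM in BAT, 138 CPM in mesPVAT on 10x, 119 CPM in mesPVAT on Parse and 59.1 CPM in RP fat. The mesPVAT libraries had overlapping intervals.

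Agpat2, whose loss in humans causes congenital lipodystrophy, stood at 265 CPM in BAT, 254 CPM in taPVAT, 224 CPM in mesPVAT on 10x, 58.4 CPM in cow WAT, 32.0 CPM in mesPVAT on Parse and 14.2 CPM (12 UMIs) in RP fat. The intervals of BAT and taPVAT overlapped, as did those of the white rat Parse libraries. The span of the gene (chr3:29814924-29826569) overlaps Egfl7, a gene of endothelial cells, so UMIs from the overlap may belong to either. The same limit holds for Gpam, Dgat2 and Mogat1, whose spans overlap LOC120098625, LOC120099889 and LOC134480390.

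Lpin1, a phosphatidic acid phosphatase (chr6:45039110-45145845), was at like levels in brown rat fat and cow white fat. It stood at 586 CPM in BAT, 572 CPM in cow WAT, 526 CPM in taPVAT, 444 CPM in mesPVAT on 10x, 158 CPM in mesPVAT on Parse and 118 CPM in RP fat. Intervals overlapped between BAT and cow WAT, and between the white rat Parse libraries.

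The enzymes of the last step were ordered differently. Dgat1 (chr7:110104514-110119091) stood at 349 CPM in BAT, 295 CPM in taPVAT, 234 CPM in mesPVAT on 10x, 106 CPM in mesPVAT on Parse, 53.2 CPM in RP fat and 24 CPM in cow WAT. Dgat2 (chr1:162866237-162896655) stood at 565 CPM in cow WAT, 466 CPM in mesPVAT on 10x, 424 CPM in BAT, 304 CPM in taPVAT, 73.0 CPM in mesPVAT on Parse and 37.9 CPM in RP fat. Cow WAT was thus lowest of the 6 libraries for Dgat1 and highest for Dgat2, with levels that rest on different gene models in the 2 species.

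Mogat1 (chr9:87429427-87436977) was at the edge of detection. It had 0 UMIs in mesPVAT on 10x, where 3 counts would be 2.42 CPM, and 5 UMIs in taPVAT, 12 in BAT, 14 in mesPVAT on Parse and 14 in RP fat. These gave 0.980 CPM in taPVAT, 1.90 CPM in BAT, 8.45 CPM in mesPVAT on Parse and 16.6 CPM in RP fat. At 200 UMIs per nucleus it was seen in 0.333% of nuclei of RP fat and in no nucleus of the other rat libraries.

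Among the genes of glycerol phosphate supply, Gpd1, the cytosolic glycerol phosphate dehydrogenase (chr7:132722982-132730373), separated brown from white. It stood at 1092 CPM in BAT, 1037 CPM in taPVAT, 305 CPM in mesPVAT on 10x, 131 CPM in mesPVAT on Parse, 129 CPM in cow WAT and 75.7 CPM in RP fat. Pck1, the cytosolic enzyme of glyceroneogenesis (chr3:182348572-182354521, downstream of the window printed above), stood at 2759.8 CPM in BAT, 2437 CPM in mesPVAT on 10x, 2047 CPM in taPVAT, 697 CPM in mesPVAT on Parse, 231 CPM in RP fat and 12.8 CPM in cow WAT. The cow level rested on 216 UMIs in 75 nuclei and lay below every rat library.

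Gk (chrX:54106708-54189940) was low in white and high in brown rat fat on Parse. It stood at 661 CPM (639 to 683) in taPVAT and 568 CPM (549.6 to 587) in BAT, against 49.5 CPM (39.4 to 61.4) in mesPVAT and 53.2 CPM (38.8 to 71.2) in RP fat. In mesPVAT on 10x it had 19 UMIs, or 15.4 CPM, and in cow WAT it stood at 84.3 CPM. The white Parse libraries overlapped each other and lay far below both brown libraries.

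**Figure D1:**
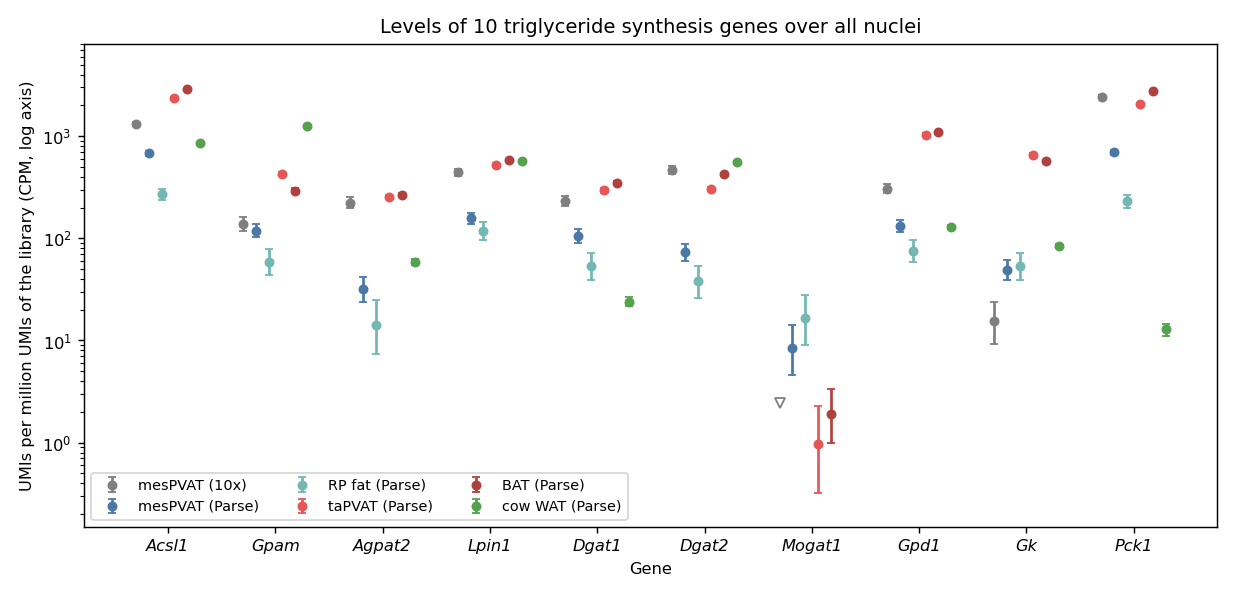
Levels of the 10 genes (CPM, log axis) in each library over all nuclei, with bars for the 95% counting interval. The open triangle is Mogat1 with 0 UMIs in mesPVAT on 10x, drawn at the CPM of 3 counts, and there is no cow value of Mogat1. taPVAT and BAT lie above mesPVAT and RP fat on Parse for every gene but Mogat1.

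On the Parse platform 9 of the 10 genes stood in both brown libraries at 2 times or more their level in either white rat library, as did 5.54% of 24063 genes with at least 20 UMIs. The lower brown level was 10.7 times the higher white level for Gk, 7.94 times for Agpat2, 7.92 times for Gpd1, 4.16 times for Dgat2, 3.50 times for Acsl1, 3.34 times for Lpin1, 2.94 times for Pck1, 2.79 times for Dgat1 and 2.47 times for Gpam. Taken as the higher brown over the lower white level, Agpat2 (18.6 times) and Gpd1 (14.4 times) stood above Gk (13.3 times). Mogat1 was lower in brown by the same rule, as were 47.4% of genes. The share of marker-positive nuclei was also higher in BAT (71.1%) and taPVAT (62.3%) than in mesPVAT (23.2%) and RP fat (10.5%). In the same order, median UMIs per nucleus were 1706 and 1246 against 346 and 213. Nuclei with no marker class, as set out below, made up 6.37% and 12.2% against 57.5% and 83.9%. The study found no clear break between nuclei and background RNA in mesPVAT or RP fat. It also spun taPVAT more slowly than rat white fat. The part of these differences was not tested.

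Within marker-positive nuclei alone, 6 of the 10 genes met the rule for higher in brown, against 7.46% of 18969 genes. They were Acsl1, Agpat2, Lpin1, Dgat2, Gpd1 and Gk. Gk stood at 785 CPM in taPVAT and 655 CPM in BAT against 38.7 CPM in mesPVAT and 58.7 CPM in RP fat, so its gap, 11.2 times, was as large as over all nuclei. Gpd1 kept 5.78 times and Agpat2 5.73 times. Pck1, Dgat1 and Gpam were at 1.71, 1.74 and 1.85 times, under the 2-fold mark. The white values of Gk here rest on 25 UMIs in mesPVAT and 7 in RP fat. Marker-positive nuclei numbered 1918 in BAT, 1687 in taPVAT, 702 in mesPVAT and 295 in RP fat. The adipocyte class set out below, which takes at least 2 marker UMIs, held 1622, 1345, 561 and 98. Most marker-positive nuclei of RP fat, and some of each other library, thus fall outside the adipocyte class. In that class Acsl1 stood at 3097 CPM in taPVAT and 3665 CPM in BAT, against 1802 CPM in mesPVAT, the higher white library. Lpin1 stood there at 685 and 743 CPM against 357 CPM, so by the same rule both were under the 2-fold mark. Agpat2, Dgat2, Gpd1 and Gk stayed past it. The share of all genes past it was not computed for the adipocyte class. White levels there rest on few UMIs, with 29 of Agpat2 and 19 of Gk in mesPVAT. In RP fat there were 0 of Agpat2, 0 of Gk and 2 of Dgat2.

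Between BAT and taPVAT, none of the 9 genes with at least 20 UMIs was 2-fold apart. Over all 18696 genes 1.10% were at least 2-fold higher and 5.97% at least 2-fold lower in BAT, so a count of 0 among 9 is near the background. The median ratio of BAT to taPVAT was 1.11 for the 9 genes and 0.928 for all genes. Gpam was lowest at 0.690 (0.648 to 0.734) and Dgat2 highest at 1.39 (1.31 to 1.48). Gk stood at 0.860 (0.820 to 0.901) and Pck1 at 1.35 (1.32 to 1.38).

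Between the white rat Parse libraries, Acsl1, Gpam, Agpat2 and Pck1 were 4 of 10 genes at least 2-fold higher in that labelled mesPVAT than in that labelled RP fat, against 5.88% of 18507 genes. No gene of the 10 was 2-fold lower, against 9.79% of genes. If the labels of these libraries were exchanged, the same 4 genes would be the ones lower in mesPVAT. Pck1 had the highest ratio at 3.02 (2.59 to 3.54), while Gk stood at 0.930 (0.639 to 1.37). The share of marker-positive nuclei was also higher in mesPVAT, at 23.2% against 10.5%, and its part was not tested. With nuclei under 500 UMIs left out, or with median-of-ratios scaling, 7 genes were 2-fold apart, with no share of all genes computed.

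The mesPVAT libraries differ in kit, nuclei isolation, batch and annotation, which cannot be told apart, and the doubt about the label of the Parse library extends to its tissue. At least 2-fold higher on 10x were 6 of 9 genes, against 22.8% of 12067 genes. Agpat2 was at 7.0 times (5.20 to 9.57), Dgat2 at 6.38 times (5.24 to 7.83) and Pck1 at 3.50 times, followed by Lpin1, Gpd1 and Dgat1 at 2.82, 2.33 and 2.21 times. Gk was lower on 10x, at 0.310 times (0.178 to 0.516), as were 32.4% of genes by 2-fold or more. With nuclei under 500 UMIs left out, Gk was at 1.02 times and 4 genes were 2-fold apart, with no share of all genes computed.

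Within each library, marker-positive nuclei were set against negative nuclei. At least 2-fold higher in positive nuclei were 9 of 9 genes in taPVAT (9.96% of 14682 genes), 9 of 9 in BAT (12.8% of 14829), 8 of 9 in mesPVAT on Parse (3.38% of 14212), 7 of 9 in cow WAT (5.66% of 20169), 5 of 8 in RP fat (5.58% of 10320) and 1 of 8 in mesPVAT on 10x (2.42% of 8105). Genes under 20 UMIs are not counted, which left out Mogat1 in every rat library, Gk in mesPVAT on 10x and Agpat2 in RP fat. No counted gene was 2-fold lower, while of all genes 29.2% were in taPVAT, 26.1% in BAT, 8.39% in mesPVAT on Parse, 9.16% in cow WAT, 13.7% in RP fat and 10.4% in mesPVAT on 10x. The median ratio of the genes against that of all genes was 11.2 against 0.898 in cow WAT, 7.57 against 0.814 in BAT, 5.74 against 0.744 in taPVAT, 2.94 against 0.862 in mesPVAT on Parse, 2.68 against 0.924 in RP fat and 1.68 against 0.951 in mesPVAT on 10x.

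Positive nuclei were also deeper than negative nuclei, by 1.43 times in median UMIs in mesPVAT on 10x up to 2.66 times in cow WAT. With every nucleus thinned to 200 UMIs before the markers were read, 2 genes in taPVAT, 0 in BAT and 2 in RP fat were 2-fold higher. With Adipoq as the only marker, 0 genes were 2-fold higher in taPVAT, BAT and both mesPVAT libraries, and 1 was in RP fat. The share of all genes past 2-fold was not computed under these settings, so the counts have no background beside them. Adipoq was seen in 24.4% and Plin1 in 69.1% of BAT nuclei, and in 18.8% and 60.4% of taPVAT nuclei. With Adipoq alone, nuclei with Plin1 but no Adipoq thus counted as negative. On 10x the order was the other way, at 15.4% and 11.3%. After thinning, Plin1 was seen in 32.0% of BAT nuclei. The part of these shares was not tested.

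In BAT the highest ratios were those of Agpat2 at 9.5 (6.63 to 14.1), Gk at 9.41 (7.36 to 12.2) and Lpin1 at 8.51 (6.76 to 10.9), and the lowest was that of Gpam at 3.76 (3.01 to 4.75). In taPVAT the ratios were nearer to each other, from 4.83 (4.24 to 5.53) for Gpd1 to 6.87 (5.67 to 8.41) for Gk. Lipe, the hormone-sensitive lipase that breaks triglyceride down, stood at 3.02 in BAT and 3.68 in taPVAT, below each of the 9 genes.

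In cow WAT the acyl chain genes were near the top of all genes. GPAM was 20.6 times higher in PLIN1-positive nuclei (19.5 to 21.7), at rank 7 of 20169, DGAT2 17.3 times at rank 13, LPIN1 16.0 times at rank 21 and PCK1 15.3 times at rank 23. GPD1, ACSL1 and AGPAT2 stood at 11.2, 10.2 and 7.14. PCK1 thus followed PLIN1 in the cow although its level in positive nuclei was only 28.9 CPM. DGAT1 stood apart at 1.95 (1.59 to 2.38), and GK at 0.827 (0.740 to 0.922).

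In mesPVAT on Parse, Pck1 at 5.99 (5.19 to 6.93) and Acsl1 at 5.50 (4.77 to 6.35) led, at ranks 30 and 39 of 14212 genes. Gk stood at 0.685 (0.410 to 1.11), and at 1.18 with nuclei under 500 UMIs left out. In RP fat Dgat1 at 3.69 (1.90 to 6.99) and Acsl1 at 3.04 (2.28 to 4.03) led, and Gk stood at 1.12 (0.422 to 2.54). On 10x the counted ratios were flatter, from 1.3 for Gpam to 2.08 for Gpd1, beside 1.64 for Lipe and 2.12 for the lipid droplet gene Cidec. With nuclei under 500 UMIs left out, all 8 counted genes passed 2-fold there, and Agpat2 was lowest at 2.68 and Gpd1 highest at 6.26. That cut left out more than the 64.3% of 10x nuclei with under 200 UMIs. Of 5887 nuclei, only 403 positive and 553 negative nuclei held at least 300 UMIs, and the cut kept no more than these. The share of all genes past 2-fold was not computed for this cut. Over all 10x nuclei, Gk had 13 UMIs in positive and 6 in negative nuclei, a ratio of 4.96 (1.76 to 15.9).

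**Figure D2:**
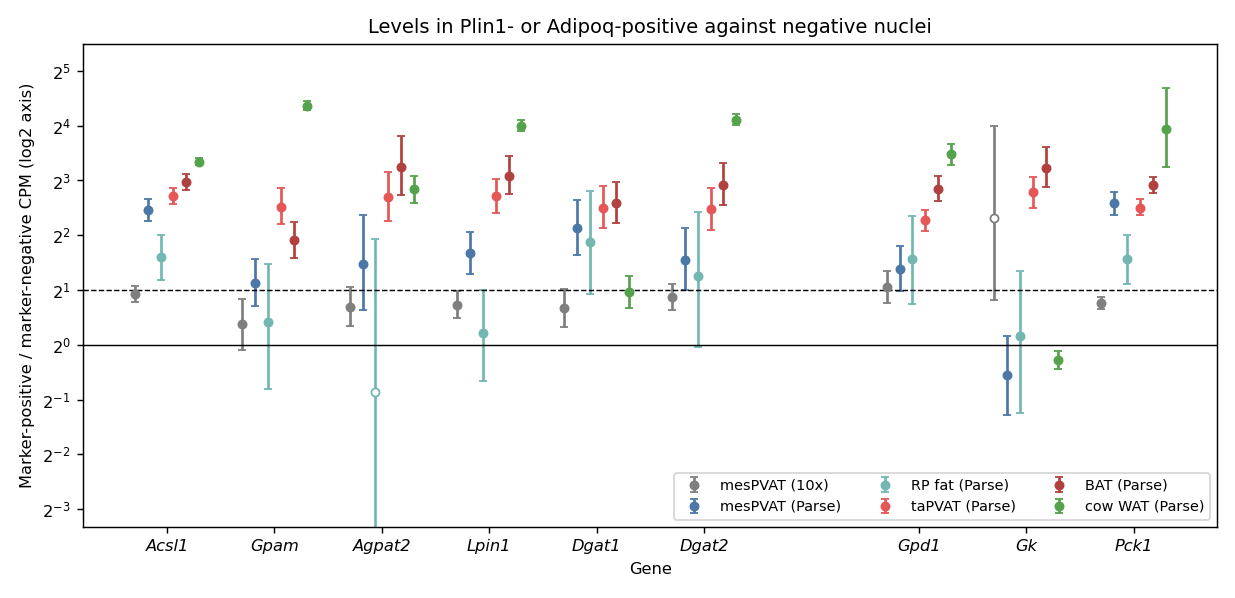
Ratio of the level in Plin1- or Adipoq-positive nuclei to that in negative nuclei (log2 axis) for each gene and library, with the solid line at 1, the dashed line at 2 and bars for 95% counting intervals. Open points rest on under 20 UMIs. Gk lies at 6.87 and 9.41 in taPVAT and BAT, and at 0.685 and 0.827 in mesPVAT on Parse and in cow WAT.

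Shares of nuclei were compared with each nucleus thinned to 200 UMIs. Positive and negative nuclei were called on all UMIs, before thinning, so the split itself was not at equal depth. In BAT positive nuclei had a median of 2188 UMIs and negative nuclei 897. Pck1 was seen in 42.7% of positive and 8.96% of negative nuclei in BAT. Gk was seen in 12.1% and 1.28% in BAT, and in 11.5% and 2.64% in taPVAT. In mesPVAT on Parse it was seen in 0.456% (0.0941% to 1.33%) and 1.16% (0.729% to 1.75%), with overlapping intervals. Unthinned, 72.4% of all BAT nuclei held a Pck1 UMI and 44.4% a Gk UMI. Thinning left out nuclei with under 200 UMIs, 64.3% of mesPVAT on 10x, 46.4% of RP fat, 15.7% of mesPVAT on Parse and none of the other libraries.

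The genes were also counted together in each nucleus at 200 UMIs, with positive and negative nuclei again called before thinning. A positive nucleus held UMIs of 1.60 of the genes on average in BAT (SD over nuclei 1.18), against 0.314 in negative nuclei. The means were 1.42 and 0.330 in taPVAT, 1.28 and 0.819 in mesPVAT on 10x, 0.860 and 0.121 in cow WAT, 0.728 and 0.196 in mesPVAT on Parse, and 0.309 and 0.155 in RP fat. Positive nuclei were thus higher in each library, by the least in proportion on 10x. At least 3 of the genes were held by 21.9% of positive and 1.02% of negative nuclei in BAT, 16.9% and 0.784% in taPVAT, and 9.98% and 0.158% in cow WAT.

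**Figure D3:**
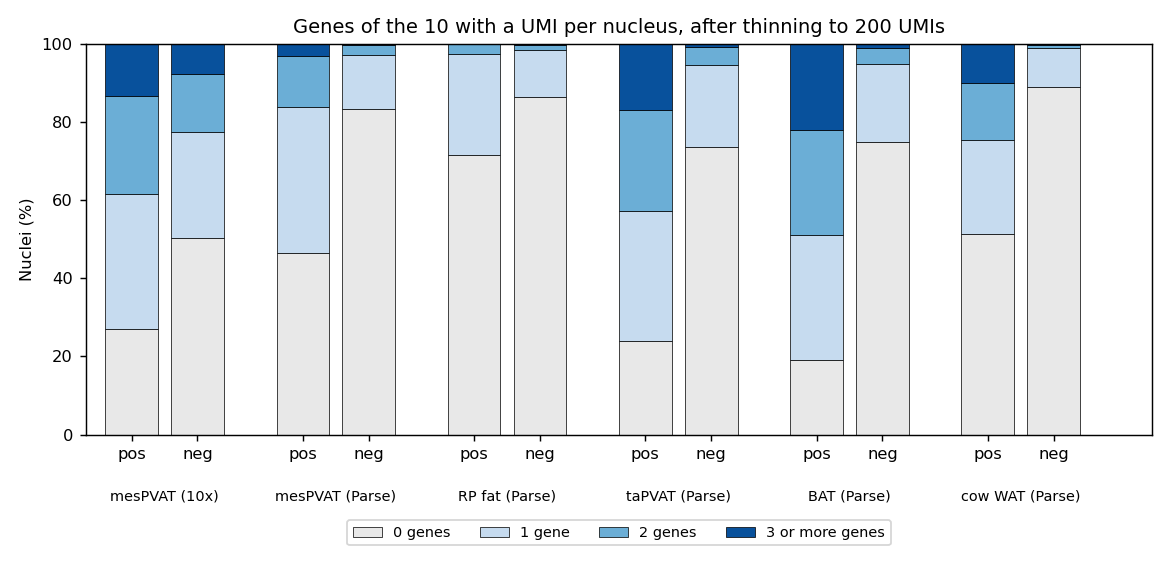
Share of nuclei (%) with UMIs of 0, 1, 2 or at least 3 of the 10 genes after thinning to 200 UMIs, for Plin1- or Adipoq-positive and negative nuclei of each library. Positive and negative nuclei were called before thinning. Nuclei with none of the genes make up 19.0% of positive and 75.0% of negative nuclei in BAT, and 71.6% and 86.5% in RP fat.

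Nuclei were then given the class with the most marker UMIs, at least 2 and with no tie. The adipocyte class held 1622 nuclei in BAT, 1345 in taPVAT, 1488 in mesPVAT on 10x, 561 in mesPVAT on Parse, 160 in cow WAT and 98 in RP fat. In the endothelial class of BAT the 9 genes with UMIs to compare stood at 20.5% (Dgat1) to 30.2% (Gpam) of their adipocyte level, and in that of taPVAT at 18.5% (Agpat2) to 28.5% (Gpd1). Plin1, Adipoq, Cidec and Lipe, which are among the 7 markers that set the adipocyte class, stood there at 14.1% to 45% in BAT and 16.7% to 44.4% in taPVAT. Of nuclei in the endothelial class, 27.2% in BAT and 27.0% in taPVAT held a Plin1 or Adipoq UMI. Of all nuclei with at least 2 endothelial marker UMIs, whatever their class, 50.4% and 51.1% did.

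Gk in brown fat was highest in the adipocyte class, at 867 CPM (837 to 898) in taPVAT and 718 CPM (693 to 743) in BAT. In the immune class it stood at 108 CPM and 210.5 CPM. In mesPVAT on 10x, 15 of its 19 UMIs were in the adipocyte class, which gave 37.1 CPM (20.8 to 61.3), and none were in the endothelial, immune, mesothelial or progenitor classes, where depth allows up to 35.5 CPM in the progenitor class and more in the others.

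In mesPVAT on Parse, Gk was level across classes, at 41.3 CPM in the adipocyte, 33.0 CPM in the endothelial, 46.3 CPM in the mural and 48.7 CPM in the immune class, each with 4 to 19 UMIs. Gpd1 in the same library stood at 261 CPM in the adipocyte and 45.3 CPM in the endothelial class. Ucp1 stood at 41.3 CPM in the adipocyte and 33.0 CPM in the endothelial class there. In RP fat the 98 nuclei of the adipocyte class held no Gk UMI, with an upper limit of 85.3 CPM.

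In cow WAT, GK was highest in the immune class. It stood at 283 CPM (262 to 305) in 341 immune-class nuclei, 68.2 CPM (60.8 to 76.3) in the endothelial, 46.6 CPM (41.1 to 52.7) in the progenitor, 45.9 CPM (38.2 to 54.8) in the adipocyte and 24.4 CPM (16.6 to 34.6) in the mural class. The immune level was 6.16 times the adipocyte level (5.08 to 7.53). GPD1 had the opposite order, at 494 CPM in the adipocyte and 43.0 CPM in the immune class. The adipocyte markers stood in the immune class at 5.53% to 9.92% of their adipocyte level. GK was not alone above them. Of the 9 genes 7 were, namely GK, ACSL1, GPAM, AGPAT2, LPIN1, DGAT1 and PCK1, with DGAT1 at 46.5% and ACSL1 at 16.6%. In the progenitor class of the cow 7 of 9 were also above the markers. The share of all genes above them was not computed.

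Few nuclei carried much of the cow GK signal. The 10 nuclei with the most GK UMIs held 55.7% of them in the immune class and 74.0% in the adipocyte class. Without these nuclei the levels were 152 and 14.9 CPM, a ratio of 10.2 (7.08 to 15.2). They were picked by GK itself and are 10 of 341 immune-class but 10 of 160 adipocyte-class nuclei. The trimming was thus unequal, and the rise of the ratio does not show a wider gap. With the study's limits of 100 to 15000 UMIs and at most 4500 genes per nucleus, the ratio was 3.89 (2.52 to 6.28). The doublet, mitochondrial and outlier filters that the study also describes were not applied. The immune class stood at 248 and 318 CPM in the 2 sublibraries, and the adipocyte class at 44.3 and 47.1 CPM. The endothelial class stood at 41.5 and 90.7 CPM and the progenitor class at 33.1 and 59.4 CPM, so the order of the classes below the immune class was not the same in both. At 200 UMIs, 3.81% of immune-class nuclei (2.05% to 6.43%) and 0.625% of adipocyte-class nuclei (0.0158% to 3.43%) held a GK UMI, with median depths of 3756 and 6511 UMIs before thinning. Unthinned shares were 27.0% and 20%. Of the 684 GK UMIs in the immune class, 680 were in 262 nuclei that held Ptprc, the common leukocyte antigen CD45. The 79 nuclei without it held 4. Ptprc is among the markers that set the class, and the part of depth was not tested. The 10 nuclei with the most GK UMIs had a median depth of 28331.5 UMIs, against 3756 in the class. The level was 20.3 times higher (7.91 to 74.9) in immune-class nuclei with Ptprc than in those without. It was 4.78 times higher with Ikzf1, 2.20 times with Csf1r and 1.80 times with Cd163. It was lower with the other markers found, at 0.754 times with F13a1, 0.540 times with Cd74 and 0.432 times with Mrc1.

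**Figure D4:**
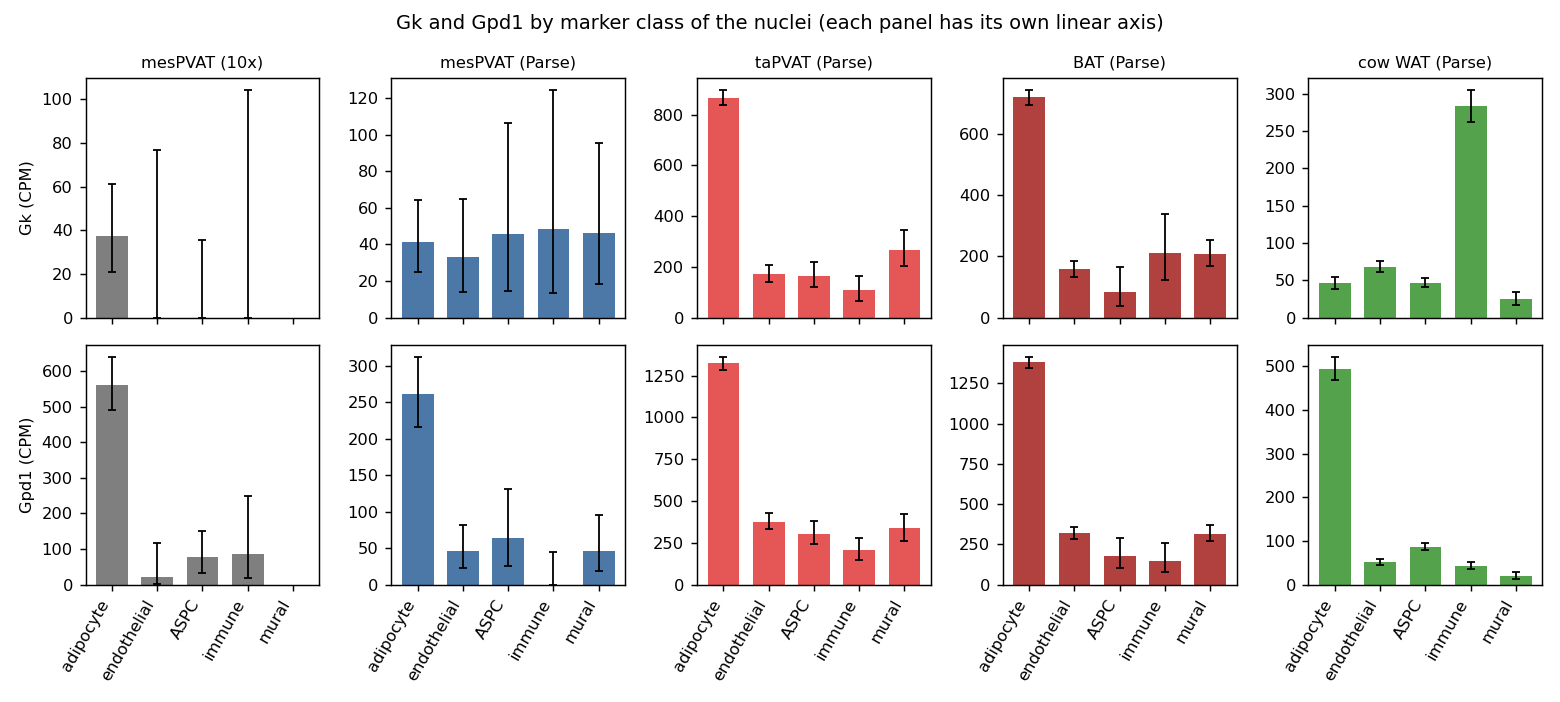
Levels of Gk and Gpd1 (CPM) in 5 marker classes of each library but RP fat, with bars for 95% counting intervals and a linear axis of its own in each panel. ASPC stands for adipocyte stem and progenitor cells, and classes under 20 nuclei are left blank. In cow WAT Gk is highest in the immune class at 283 CPM and Gpd1 in the adipocyte class at 494 CPM.

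Among marker-positive nuclei of brown fat, those with a Ucp1 UMI held more Gk. In taPVAT, 1234 nuclei with Ucp1 stood at 868 CPM of Gk and 453 without it at 222 CPM, a ratio of 3.91 (3.25 to 4.74). In BAT, 1543 nuclei with Ucp1 stood at 713 CPM and 375 without it at 149 CPM, a ratio of 4.78 (3.84 to 6.01). Nuclei with Ucp1 were deeper, with median UMIs of 2302.5 against 968 in taPVAT and 2463 against 1133 in BAT, and the part of depth was not tested.

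At least 2-fold higher in nuclei with Ucp1 were 2 of 9 genes in taPVAT, Gk and Pck1, against 6.21% of 12849 genes. In BAT they were 6 of 9, against 7.61% of 13516 genes. Beside Gk these were Lpin1 at 2.48, Agpat2 at 2.44, Pck1 at 2.24, Acsl1 at 2.16 and Gpd1 at 2.03. No gene of the 9 was 2-fold lower in either, against 19.3% of genes in taPVAT and 26.5% in BAT. In mesPVAT on Parse only 23 marker-positive nuclei held Ucp1, and Lpin1 was 1 of 9 genes at least 2-fold higher, at 2.40 (1.18 to 4.41), against 12.0% of 6742 genes. The 4 genes at least 2-fold lower there (Gpam, Dgat2, Gpd1 and Gk, against 39.2% of genes) had 0 or 1 UMI in these nuclei.

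**Figure D5:**
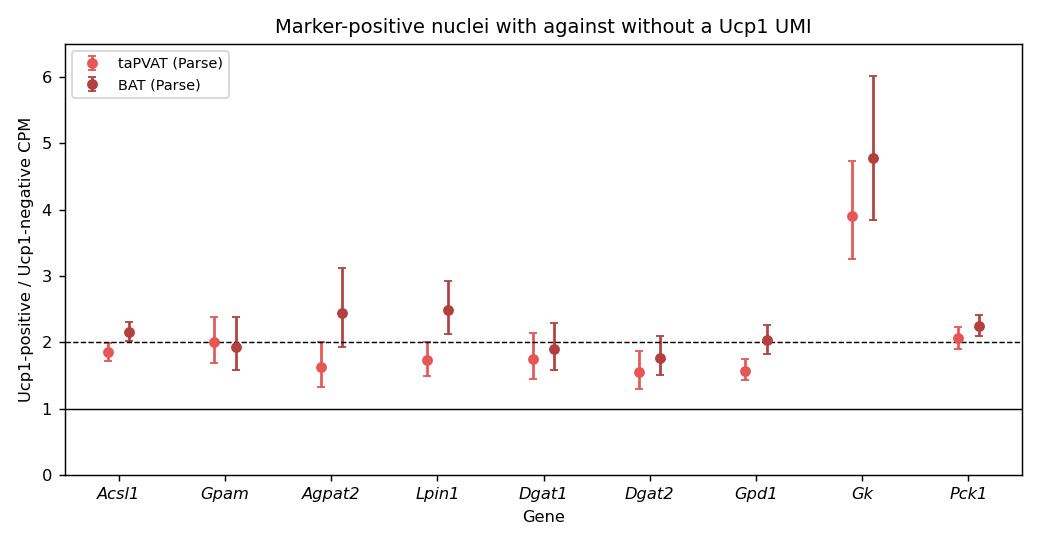
Ratio of the level in nuclei with a Ucp1 UMI to that in nuclei without, among Plin1- or Adipoq-positive nuclei, with 95% counting intervals. Gk has the highest ratio in taPVAT at 3.91 and in BAT at 4.78.

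Pairs of genes were compared across libraries as a ratio of UMIs in marker-positive nuclei, not corrected for gene length. The pairs were chosen after the values were seen, and only Dgat1 and Dgat2 share a step. Dgat2 to Dgat1 was 38.1 in cow WAT, 2.16 in mesPVAT on 10x, 1.22 in BAT, 1.03 in taPVAT, 0.612 in mesPVAT on Parse and 0.529 in RP fat. Gk to Pck1 was 2.59 in cow WAT, 0.325 in taPVAT, 0.207 in BAT, 0.109 in RP fat, 0.0273 in mesPVAT on Parse and 0.0101 in mesPVAT on 10x. The cow value is of the 401 PLIN1-positive nuclei, most of them outside the adipocyte class, which held 160 nuclei. In the cow adipocyte class GK stood at 45.9 CPM (123 UMIs) and PCK1 at 52.7 CPM (141 UMIs), with overlapping intervals. Pck1 to Gpd1 was 7.14 and 6.74 in mesPVAT on 10x and Parse, 3.05 in RP fat, 2.53 in BAT, 1.99 in taPVAT and 0.102 in cow WAT. Gk to Gpd1 was 0.646 in taPVAT, 0.523 in BAT, 0.333 in RP fat, 0.265 in cow WAT, 0.184 in mesPVAT on Parse and 0.0722 in mesPVAT on 10x. Cow WAT thus lay at an end of the order in the other 3 of these pairs but not for Gk to Gpd1. Gpam to Acsl1 was also computed, at 1.59 in cow WAT and from 0.0838 in mesPVAT on 10x to 0.179 in taPVAT.

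A list of 26 related genes had lower median ratios. It holds paralogs but also glycerol channels and genes of assembly in the endoplasmic reticulum, so not all are of the same steps. At least 2-fold higher in marker-positive nuclei were 0 of 17 with at least 20 UMIs in mesPVAT on 10x, 2 of 18 in mesPVAT on Parse, 2 of 11 in RP fat, 5 of 18 in taPVAT, 6 of 19 in BAT and 6 of 24 in cow WAT. At least 2-fold lower were 0, 1, 2, 3, 3 and 0. Over all genes the shares higher were, in the same order, 2.42%, 3.38%, 5.58%, 9.96%, 12.8% and 5.66%, and the shares lower 10.4%, 8.39%, 13.7%, 29.2%, 26.1% and 9.16%. The medians ran from 1.01 in mesPVAT on Parse to 1.39 in BAT.

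Agpat3, a paralog of Agpat2, and Aqp7, the glycerol channel of adipocytes, were each 2-fold higher in 4 libraries. Agpat3 stood at 6.79 in BAT, 5.38 in taPVAT, 2.47 in mesPVAT on Parse and 2.21 in RP fat, and at 1.45 in mesPVAT on 10x and 1.17 in cow WAT. Its value in RP fat (0.852 to 5.16) rests on 8 UMIs in positive nuclei. Another paralog, Agpat4, went the other way in rat, at 0.249 in BAT, 0.258 in taPVAT and 0.526 in mesPVAT on Parse. It stood at 0.604 in mesPVAT on 10x, 0.676 in RP fat and 3.12 in cow WAT. Aqp7 stood at 17.2 in cow WAT, 6.02 in taPVAT, 2.66 in RP fat and 2.36 in BAT, and at 1.79 and 1.75 in mesPVAT on 10x and Parse. Its value in RP fat (0.926 to 6.84) rests on 7 UMIs in positive nuclei. Gpd2, the mitochondrial partner of Gpd1, was past 2-fold in brown fat only, with 5.61 for taPVAT and 4.91 for BAT. Its white rat ratios were 0.669 (0.448 to 0.984) for mesPVAT on Parse and 0.807 (0.261 to 2.15) for mesPVAT on 10x. For RP fat the ratio was 1.04 (0.514 to 1.94). Cow WAT, at 0.816, lay among these white rat values. The ratio of Gpd1l, a cytosolic paralog, was 0.744 for cow WAT, beside 0.913 for BAT and 0.819 for taPVAT. Pck2, the mitochondrial form of Pck1, stood at 0.467 in taPVAT and 0.491 in BAT but 5.03 in cow WAT.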

How the data were processed

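Per the study's methods, the authors checked reads with FastQC, split Parse reads by species and counted them with split-pipe on GRCr8 (rat) or ARS-UCD1.3 (cow). The 10x library was counted with Cell Ranger 7.1.0, per the file headers. The deposited files hold raw counts of UMIs per gene and barcode, and the authors' filtered barcodes were all used, with no further filter and no doublet caller. The labels name Scanpy as well.

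UMIs were summed over nuclei and divided by the total (CPM). Intervals are exact (Poisson for CPM, binomial for shares, conditional binomial for ratios) at 95%. Ratios were counted at 2-fold for genes with at least 20 UMIs, and shares were also computed after thinning nuclei to 200 UMIs. Classes came from 52 markers in 8 lists. The lists hold none of the 10 genes. All 10 genes are named, and of 26 related genes those past 2-fold in the same direction in at least 3 libraries. Agpat4, Gpd1l, Gpd2 and Pck2 are named besides, as paralogs or counterparts of Agpat2, Gpd1 and Pck1. The other related genes, paralogs among them, are only counted. The genes and lists were chosen with earlier results of these data known. Python 3.11.15, numpy 2.4.6, scipy 1.17.1, pandas 2.3.3 and matplotlib 3.10.9 were used, and the scripts were tested on simulated data. Alternatives were other filters on nuclei, other markers, other scalings, other UMI minimums and each Parse sublibrary alone.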

Additional observations from a re-analysis of the deposited data

Results flagged for a closer look

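GK in cow WAT had a ratio of PLIN1-positive to negative nuclei of 0.827, below 1. The same ratio of Gk was above 1 in taPVAT and BAT, at 6.87 and 9.41. In the white rat Parse libraries it was 0.685 (0.410 to 1.11) in mesPVAT and 1.12 (0.422 to 2.54) in RP fat. A ratio near or below 1 was thus not particular to the cow. The difference between the libraries was not tested, since each condition had 1 library. The level of GK in the immune class of cow WAT, 283 CPM, stands beside this value. PLIN1-positive cow nuclei numbered 401 and the adipocyte class 160, so most PLIN1-positive nuclei were outside that class.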

How the results depend on the processing

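No paired analysis was possible because each condition had 1 library and no result came from a test. For the same reason no replicate could be left out. Of 92 counts of genes recomputed under an alternative, 74 stayed within 1.5 times and 18 moved further. Of 1116 values of single genes, 898 kept their place, 211 moved and 7 of those past 2-fold reversed. Some settings, such as a minimum of 50 UMIs, leave the ratio of a gene as it was. Part of the 898 was thus fixed in advance. A further 10 ratios that were under 2-fold crossed 1, among them Gk in mesPVAT on Parse, which went from 0.685 to 1.18 with nuclei under 500 UMIs left out. The cause of the shifts was not tested.

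The number of genes at least 2-fold higher in marker-positive nuclei moved most with the choice of marker and with depth. Shares over all genes were computed for the main setting alone, so counts under other settings have no background beside them. In mesPVAT on 10x it was 1, and it was 8 with nuclei under 500 UMIs left out, 2 with Plin1 alone, 0 with Adipoq alone, 5 with at least 2 marker UMIs against none and 0 after thinning to 200 UMIs. With Adipoq alone it was 0 in mesPVAT on Parse, taPVAT and BAT and 1 in RP fat. After thinning it was 2 in taPVAT, 0 in BAT and 2 in RP fat. In RP fat it was 3 with nuclei under 500 UMIs left out, 3 with a minimum of 50 UMIs and 3 in sublibrary 2 alone. Between mesPVAT and RP fat 7 genes were 2-fold apart with nuclei under 500 UMIs left out and 7 with median-of-ratios scaling. Between mesPVAT on 10x and Parse, 7 genes were 2-fold apart and 4 with nuclei under 500 UMIs left out.

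Reversed with Adipoq alone were the marker-positive to negative ratio of Gpam, mesPVAT_Parse (0.722), marker-positive to negative ratio of Agpat2, mesPVAT_Parse (0.624), marker-positive to negative ratio of Dgat1, mesPVAT_Parse (0.930), marker-positive to negative ratio of Dgat2, mesPVAT_Parse (0.764), marker-positive to negative ratio of Gpd1, RP_Parse (0.846) and marker-positive to negative ratio of Agpat2, taPVAT_Parse (0.967). The ratio of Gk, mesPVAT_10x to mesPVAT_Parse, reversed to 1.02 with nuclei under 500 UMIs left out. Median-of-ratios scaling changed every ratio of mesPVAT to RP fat by 0.28 and every ratio of 10x to Parse by -0.33 (log2).

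For cow GK, leaving out the 10 nuclei with most UMIs and applying the study's limits on UMIs and genes were chosen after seeing the data. Settings with Plin1 or Adipoq alone were not run for the cow, nor sublibraries for 10x. Under 20 UMIs, as for Mogat1, depth was too low to place a gene.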
